A study of Homo sapiens with 11 samples.

Results

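The miRNA (microRNA) hairpins of miR-582, miR-190a and miR-876 were followed through both of their arms, which gives 6 mature miRNAs of the 2576 in the count tables. They were chosen by name because their counts were much lower after H2O2 in co-treatment, so that comparison is given for them as a description, with no test, and the question put to it is whether both arms of a hairpin were lower. The cells were SH-SY5Y, human neuroblastoma cells that all-trans retinoic acid (ATRA) turns towards neurons, and the cells of all 4 groups were differentiated with ATRA for 7 days. In co-treatment, 3 libraries came from cells with 10 µM H2O2 in the medium during the 7 days of ATRA and 3 from cells without H2O2. In pre-treatment, 3 libraries came from cells exposed to 10 µM H2O2 for 72 h before ATRA, with the H2O2 then removed, and 2 control libraries from cells without H2O2. The study describes triplicates, and 1 pre-treatment control of such a set was not analysed here. All libraries are of 1 cell line, so p-values measure the spread between samples of that line. In such bulk samples, fewer cells of a kind and less RNA in each cell cannot be told apart.

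A miRNA gene is transcribed as a long precursor from which the enzyme DROSHA cuts a hairpin, and DICER then cuts the hairpin to a short duplex. The strand from the left side of the hairpin is called 5p and the strand from the right side 3p, and in most cases 1 of them is kept by an Argonaute protein while the other is degraded. The kept strand finds its messenger RNA targets mainly through its seed, bases 2 to 8 from its 5′ end. Both arms of a hairpin come from the same precursor, so a count of each arm reads the same transcript after different losses. miR-190a is known to repress NEUROD1, a transcription factor of neuronal differentiation.

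The mature sequences below, from RefSeq, are shown because they carry the base composition and the seeds on which the later comparisons rest, with the seed in capitals.
hsa-miR-582-5p: uUACAGUUguucaaccaguuacu
hsa-miR-582-3p: uAACUGGUugaacaacugaacc
hsa-miR-190a-5p: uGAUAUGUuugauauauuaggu
hsa-miR-190a-3p: cUAUAUAUcaaacauauuccu
hsa-miR-876-5p: uGGAUUUCuuugugaaucacca
hsa-miR-876-3p: uGGUGGUUuacaaaguaauuca

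All 6 had a RefSeq sequence, as did 2268 of the 2576 miRNAs. No seed was shared among the 6. The strands were poor in G and C, with a GC content of 22.7% in hsa-miR-190a-5p, 23.8% in hsa-miR-190a-3p, 31.8% in hsa-miR-876-3p, 34.8% in hsa-miR-582-5p, 36.4% in hsa-miR-876-5p and 40.9% in hsa-miR-582-3p.

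The hairpins, also from RefSeq, are shown with both mature strands in capitals so that the arms compared below can be seen on 1 molecule.
MIR582: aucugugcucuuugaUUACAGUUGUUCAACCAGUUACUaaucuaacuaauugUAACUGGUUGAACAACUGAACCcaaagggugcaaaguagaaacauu
MIR190A: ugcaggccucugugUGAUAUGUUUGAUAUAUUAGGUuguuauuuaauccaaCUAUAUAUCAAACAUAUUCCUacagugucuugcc
MIR876: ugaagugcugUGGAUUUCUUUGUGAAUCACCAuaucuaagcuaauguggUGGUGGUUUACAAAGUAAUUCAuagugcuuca

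The arms of miR-582 are complementary over an unbroken stretch of 18 bases, the CAGUUGUUCAACCAGUUA of its 5p strand. The longest such stretch was 15 bases in miR-190a and 6 in miR-876, counting Watson-Crick pairs only. On GRCh37, the assembly also called hg19, MIR582 lies on chromosome 5 from 58999432 to 58999529 (minus strand), in an intron of PDE4D, a phosphodiesterase that breaks down cyclic AMP. MIR190A lies on chromosome 15 from 63116156 to 63116240 (plus strand), in an intron of TLN2, a talin that links integrins to actin. MIR876 lies on chromosome 9 from 28863624 to 28863704 (minus strand), in an intron of LINGO2, a leucine-rich repeat membrane protein. Each hairpin has the same strand as its host gene. The messenger RNA of the hosts was not analysed here.

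Library totals ranged from 5343953 to 8927582 counts, and 3 counts, taken as the limit of detection, correspond to 0.336 to 0.561 CPM (counts per 1e6 library counts), a limit that covers counting error only. Levels are given as CPM after 1 TMM scaling of the 11 libraries. Over miRNAs, log2 CPM of both pre-treatment controls correlated at a Pearson r of 0.933, while any pair of the H2O2 libraries of that experiment correlated at 0.988 to 0.991. Pre-treatment control 1 also held 540 counts of hsa-miR-223-3p, a miRNA of white blood cells, and 1007 of hsa-miR-205-5p, an epithelial miRNA, against 4 and 32 in control 2. The white blood cell list (4 miRNAs) summed to 109 CPM in control 1, 13.5 CPM in control 2 and 17.9 to 22.5 CPM in the H2O2 libraries, and the epithelial list (3 miRNAs) to 165 CPM in control 1, 30.1 CPM in control 2 and 32.8 to 36.4 CPM in the H2O2 libraries. Within the epithelial list the pre-treatment log2FC of H2O2 against control was −4.54 for hsa-miR-205-5p, −0.52 for hsa-miR-200c-3p and 0.73 for hsa-miR-141-3p. The higher epithelial sum of control 1 thus came mainly from hsa-miR-205-5p. Neuronal and neuroendocrine miRNAs were present, with 5 of 6 above 3 counts in every library, but hsa-miR-124-3p, a defining neuronal miRNA, had at most 7 counts in any library. hsa-miR-9-5p, also of this list, was scarce as well, with 14 to 46 counts. The list summed to 3856 to 7188 CPM, which thus came mainly from its other members. The liver miRNA hsa-miR-122-5p was at 89.7 and 245 CPM in the pre-treatment controls and 540.4 to 858 CPM in the H2O2 libraries of that experiment. The red blood cell list (2 miRNAs) summed to 0.781 to 1.00 CPM in the pre-treatment controls and 6.24 to 7.45 CPM in the H2O2 libraries, and the muscle list (2 miRNAs) to at most 3.80 CPM in any library. The part of these markers in the results was not tested, and the pre-treatment log2FC and arm ratios of the 6 miRNAs are also given without control 1.

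In co-treatment both arms of miR-582 were lower in the H2O2 libraries, the 5p arm by more than the 3p arm. hsa-miR-582-5p was at 132, 47.7 and 222 CPM in controls 1, 2 and 3 and at 27.3, 36.1 and 17.5 CPM in the H2O2 libraries. Every H2O2 library lay below every control, but control 2 stood closer to the H2O2 libraries than to the other controls. Its fitted log2FC was −2.23 (SE 0.41), a 4.70-fold difference, and leaving out single libraries gave values from −2.61 to −1.62. hsa-miR-582-3p was at 135, 133 and 198 CPM in the controls and at 77.0, 104 and 56.6 CPM in the H2O2 libraries. For this arm control 2 did not stand apart from control 1, and the log2FC was −0.92 (SE 0.29), a 1.89-fold difference.

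**Figure D1:**
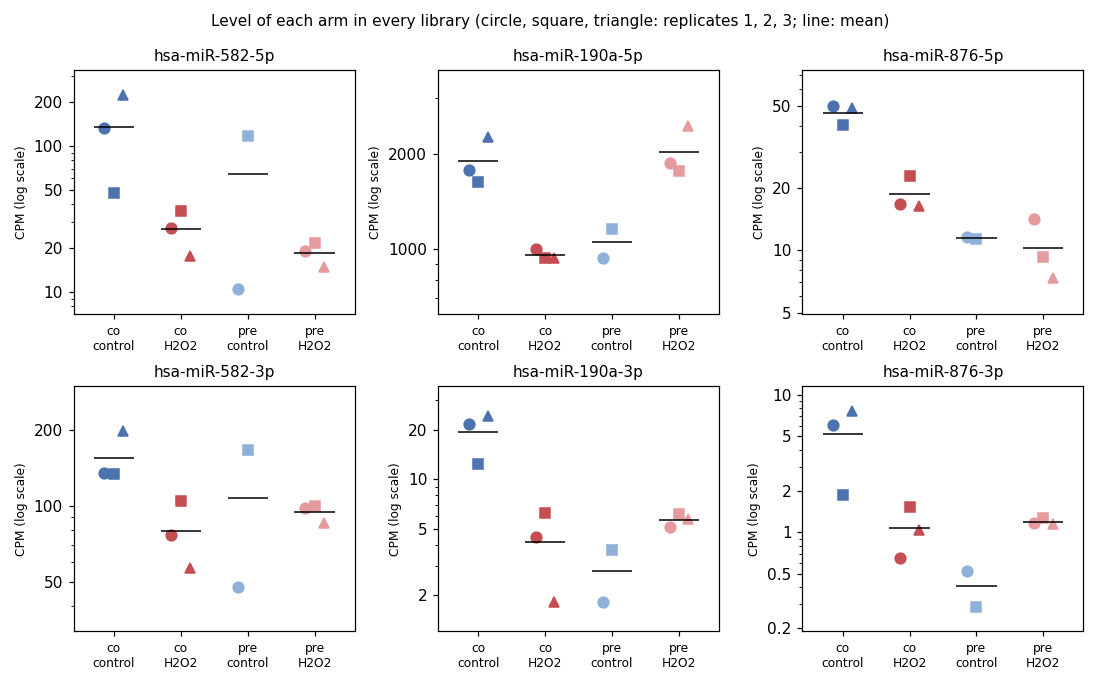
CPM on a log scale of the 6 mature miRNAs in each of the 11 libraries, by experiment and group, with symbols for the replicate number and a line at the group mean. In co-treatment the H2O2 libraries lie below the controls for all 6, while in pre-treatment the 2 controls of miR-582 lie on either side of the H2O2 libraries.

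miR-190a showed the same pattern with the arms exchanged, the 3p arm being the one that differed more. The abundant hsa-miR-190a-5p was at 1777, 1632 and 2262 CPM in the co-treatment controls and at 1001, 935 and 935 CPM in the H2O2 libraries, a log2FC of −0.92 (SE 0.24), or 1.90-fold. The H2O2 libraries were close to each other, and the highest of them lay far below the lowest control. hsa-miR-190a-3p was at 21.5, 12.4 and 24.3 CPM in the controls, from 129, 99 and 167 counts, and at 4.45, 6.26 and 1.82 CPM in the H2O2 libraries, from 41, 37 and 14 counts. No H2O2 library reached the lowest control, control 2, and the log2FC was −2.16 (SE 0.39), or 4.46-fold.

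In miR-876 too the scarcer strand, 3p, differed more. hsa-miR-876-5p was at 49.8, 40.5 and 48.7 CPM in the co-treatment controls and at 16.8, 22.9 and 16.3 CPM in the H2O2 libraries, a log2FC of −1.26 (SE 0.27), or 2.39-fold. The replicates of either group were close together, with SDs of 5.09 CPM in controls and 3.63 CPM with H2O2 (n = 3 each). hsa-miR-876-3p was found in 36, 15 and 53 reads of the controls and in 6, 9 and 8 reads of the H2O2 libraries, or 6.01, 1.87 and 7.70 CPM against 0.651, 1.52 and 1.04 CPM. Control 2 was again the lowest control and lay only slightly above the highest H2O2 library. The log2FC was −2.22 (SE 0.53), or 4.64-fold.

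Both arms of all 3 hairpins were thus lower with H2O2 in co-treatment. For all 6 every H2O2 library lay below every control, as for 23.9% of the 790 miRNAs tested. Since the 6 were chosen on this comparison, nothing is read from this count. Their median log2FC was −1.71, that of all miRNAs tested −0.04. hsa-miR-582-5p, hsa-miR-876-3p and hsa-miR-190a-3p held ranks 2, 3 and 4 from the lowest log2FC, and the partner arms hsa-miR-876-5p, hsa-miR-190a-5p and hsa-miR-582-3p held ranks 57, 124 and 126.

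**Figure D2:**
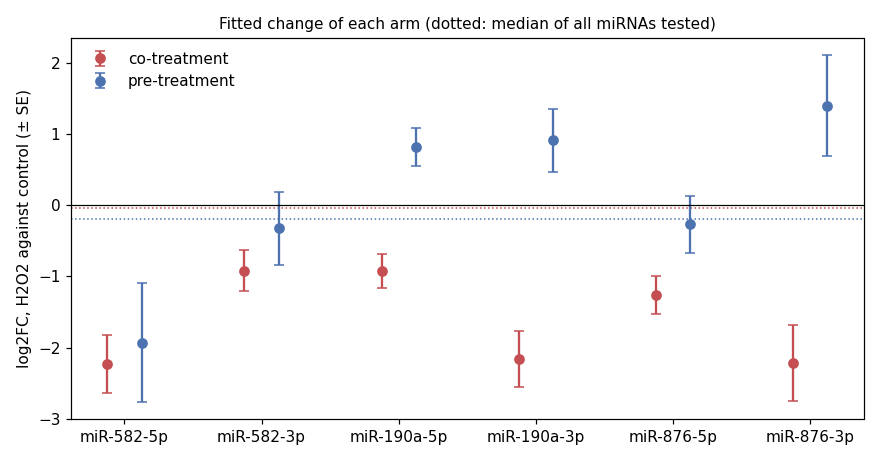
Fitted log2FC of H2O2 against control with its SE for the 6 miRNAs in co-treatment (red, a description) and pre-treatment (blue, tested), with dotted lines at the medians of all miRNAs tested. Co-treatment values run from −2.23 to −0.92, while pre-treatment values run from −1.93 to 1.40.

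The rule that chose the miRNAs did not use the pre-treatment libraries, and there the test can be read. The choice was made with earlier results of these data known. The exact test of edgeR, with Benjamini-Hochberg adjustment over 868 miRNAs, called 15.3% of the miRNAs (FDR under 0.05 and absolute log2FC above 0.6, the study's rule) and none of the 6. The quasi-likelihood test of edgeR, which called 1.96% of them, and DESeq2, which called 15.6%, called none of the 6 either. An unadjusted p under 0.05 was reached by 2 of the 6 with the exact test and with DESeq2 and by 1 with the quasi-likelihood test, against 28.6%, 28.3% and 29.3% of all miRNAs tested. For 3 of the 6 every H2O2 library lay above both controls, as for 26.6% of the miRNAs tested, and for none of the 6 did every H2O2 library lie below both, as for 20.4%. Of the 764 miRNAs tested in both experiments, 12.6% had every H2O2 library below every control in co-treatment and above every control in pre-treatment, as these 3 did. The co-treatment part of this pattern was set by the choice of the 6, so 12.6% is no base for the 3. Among all miRNAs, 189 of the 790 tested had the co-treatment part and 96 had the whole pattern. The median log2FC of the 6 was 0.27, that of all tested −0.19.

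Both arms of miR-190a were at a higher level in every pre-treatment H2O2 library than in either control, without passing the test. hsa-miR-190a-5p was at 940.1 and 1158 CPM in the controls and at 1867, 1765 and 2450.5 CPM in the H2O2 libraries. All 3 H2O2 libraries lay above both controls, with a log2FC of 0.81 (SE 0.27). The FDR was 0.114 in edgeR's exact test and 0.113 in the quasi-likelihood test. For hsa-miR-190a-3p the controls gave 14 and 26 counts and the H2O2 libraries 44, 44 and 40, or 1.82 and 3.73 CPM against 5.18, 6.19 and 5.78 CPM. The log2FC of this arm was 0.91 (SE 0.44), with an FDR of 0.266 in edgeR's exact test. Without control 1 the log2FC was 0.72 for the 5p arm and 0.53 for the 3p arm, and without control 2 it was 1.00 and 1.53.

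The arms of miR-876 did not move together in pre-treatment. hsa-miR-876-5p was at 11.6 and 11.3 CPM in the controls and at 14.2, 9.28 and 7.37 CPM in the H2O2 libraries, so that the controls lay inside the range of the H2O2 libraries (log2FC −0.27, SE 0.40, edgeR exact test FDR = 0.748). Without control 1 its log2FC was −0.20. For hsa-miR-876-3p the controls held 4 and 2 counts, close to the limit of detection, and the H2O2 libraries 10, 9 and 8. As a share of the library totals, the 27 counts of the H2O2 libraries stood to the 6 counts of the controls as 2.76 to 1, with an exact 95% interval for counting error alone from 1.12 to 8.17. Its log2FC was 1.40 (SE 0.71), with FDR = 0.217 from edgeR's exact test. This value rests on 6 control reads, and it was 1.92 without control 1 and 1.08 without control 2.

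For miR-582 the pre-treatment controls stood far apart, and the H2O2 libraries lay between them in both arms. hsa-miR-582-5p was at 10.5 CPM in control 1, from 81 counts, and at 118 CPM in control 2, from 822 counts, with 19.0, 21.8 and 14.9 CPM in the H2O2 libraries. hsa-miR-582-3p was at 47.9 and 167 CPM in the controls and at 97.7, 99.8 and 85.6 CPM in the H2O2 libraries. The H2O2 libraries were alike among themselves, with SDs of 3.47 CPM for 5p and 7.70 CPM for 3p (n = 3). The log2FC was −1.93 (SE 0.83) for 5p, with an FDR of 0.105 (exact test of edgeR) and 0.179 (quasi-likelihood test), and −0.32 (SE 0.51) for 3p, with exact test FDR = 0.735.

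A single control decided the direction of miR-582 in pre-treatment. Against control 2 alone, that is without control 1, the log2FC was −2.74 for 5p and −0.90 for 3p, and against control 1 alone it was 0.71 and 0.88. In these fits the lone control is assumed to vary as the H2O2 libraries do, whereas the 2 controls differed. Without control 1 the exact test called 33.2% of all miRNAs tested, and among the 6 hsa-miR-582-5p, hsa-miR-582-3p and hsa-miR-190a-5p. Without control 2 it called 53% of all miRNAs tested, and among the 6 hsa-miR-582-3p, hsa-miR-190a-5p and hsa-miR-190a-3p. Both arms of miR-190a and hsa-miR-876-3p had a log2FC above 0 against either control, and hsa-miR-876-5p had one below 0. The share of all miRNAs that kept their sign in this way was not counted.

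**Figure D3:**
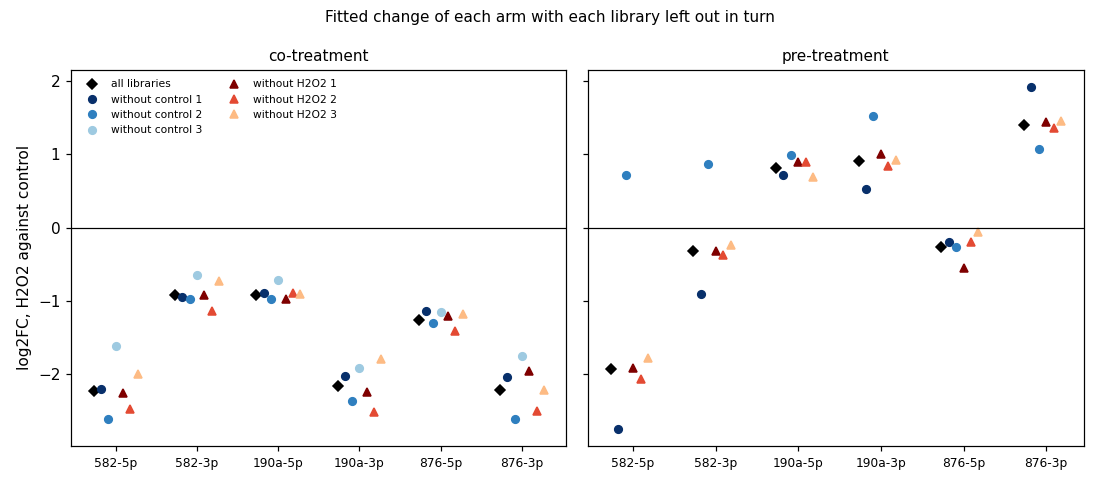
Fitted log2FC of the 6 miRNAs with all libraries (black diamonds), without each control (blue circles) and without each H2O2 library (red triangles), in co-treatment on the left and pre-treatment on the right. In co-treatment all values are below 0, and in pre-treatment both arms of miR-582 change sign without control 2.

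The ratio of 5p to 3p counts within a library compares both arms of a hairpin without any scaling between libraries. In miR-582 the arms were close to equal in co-treatment controls 1 and 3, with 0.978 and 1.12 5p counts for each 3p count, but control 2 had 0.358, next to 0.354, 0.346 and 0.310 in the H2O2 libraries. The difference in mean log2 ratio was −1.12, with SDs of 0.90 in the controls and 0.10 with H2O2 (n = 3 each), and rested on controls 1 and 3. In pre-treatment control 1 had a ratio of 0.220 and control 2 one of 0.707, with 0.194, 0.218 and 0.174 after H2O2. The H2O2 libraries thus lay below both controls, although control 1 was barely above them (difference in mean log2 ratio −1.02, exact permutation test, two-sided p = 0.10, adjusted p = 0.15 over the 3 hairpins). The smallest p that 2 against 3 libraries allow is 0.10. The difference was −1.86 without control 1 and −0.18 without control 2, so its size rests on control 2.

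In miR-190a the 5p strand prevailed in every library. There were 82.4, 132 and 93.2 5p counts for each 3p count in the co-treatment controls and 225, 149 and 514.5 in the H2O2 libraries, which all lay above the controls (difference in mean log2 ratio 1.34). The pre-treatment controls, at 516 and 311, and H2O2 libraries, at 360.2, 285 and 424, overlapped (difference −0.16, exact permutation p = 0.60, and 0.19 without control 1 or −0.52 without control 2), and all 5 lay above the 3 co-treatment controls.

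For miR-876, 5p counts per 3p count were 8.28, 21.6 and 6.32 in the co-treatment controls and 25.8, 15.0 and 15.8 in the H2O2 libraries. Control 2 lay inside the range of the H2O2 libraries, and the difference in mean log2 ratio was 0.75. In pre-treatment the direction was opposite, the controls having 22.2 and 39.5 and the H2O2 libraries 12.1, 7.33 and 6.38. All 3 H2O2 libraries lay below both controls (difference −1.67, exact permutation p = 0.10, adjusted p = 0.15), on 3p counts of 4 and 2 in the controls. The difference was −2.01 without control 1 and −1.33 without control 2.

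**Figure D4:**
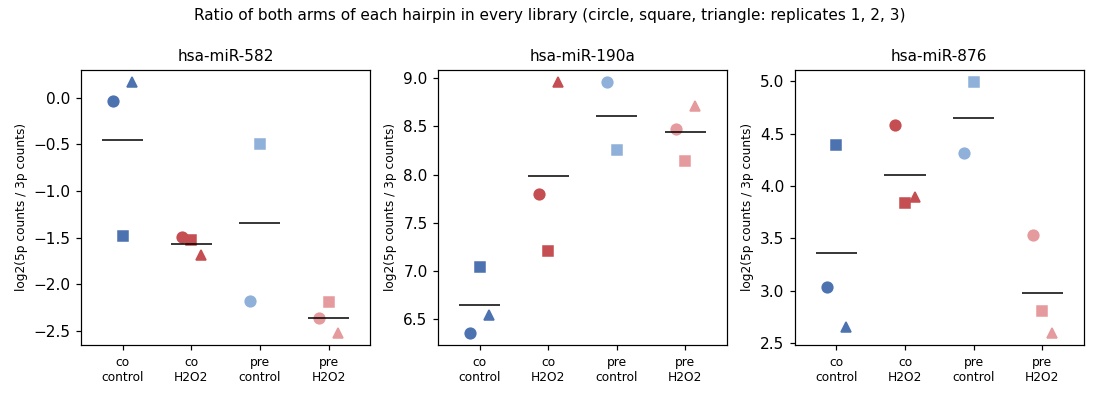
Log2 ratio of 5p to 3p counts of each hairpin in every library, by experiment and group, with symbols for the replicate number and a line at the group mean. Co-treatment control 2 (square) lies at 0.358 5p counts per 3p count in miR-582, just above the H2O2 libraries, and in miR-876 the H2O2 libraries lie above 2 of the 3 controls in co-treatment and below both in pre-treatment.

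Unequal differences between the arms were also seen in other hairpins. Of 203 hairpins with both arms tested in co-treatment, 39.9% had both log2FC below 0, and the median gap between the log2FC of the arms was 0.57. The gap was 1.31 in miR-582, 1.23 in miR-190a and 0.96 in miR-876, and 16.3%, 16.7% and 26.6% of the hairpins had a gap at least that large. In each of the 3 the arm with the lower mean CPM over the 11 libraries (5p of miR-582, 3p of miR-190a and miR-876) had the lower log2FC, as in 58.1% of the 203. That mean includes the H2O2 libraries, so an arm that was lowered more is likelier to count as the scarcer. In the co-treatment controls alone, miR-582 was at 134 CPM for 5p and 156 CPM for 3p. The hairpins were also chosen on this comparison, so nothing is read from their agreement. In pre-treatment the gap was 1.61 in miR-582, 0.096 in miR-190a and 1.66 in miR-876, against a median of 0.76 over 226 hairpins. A gap at least that large was found in 15.0%, 91.6% and 11.9% of these hairpins. The scarcer arm had the lower log2FC in miR-582 but not in miR-190a or miR-876, against 53.5% of the 226.

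The log2FC of other miRNAs differed with base composition in both experiments, and the 6 strands lie at the low end of GC content. Mature sequences were matched for 703 of the 790 miRNAs tested in co-treatment, with a median GC content of 50%, against 33.3% over the 6. In co-treatment the 184 other miRNAs with a GC content of at most 40.9%, the highest of the 6, had a median log2FC of −0.73 and 85.9% of them were below 0, whereas the 513 miRNAs above that GC content had a median of 0.22 with 38.8% below 0. In pre-treatment the order was turned round, with a median of 0.46 and 30.3% below 0 in 188 miRNAs of low GC content and a median of −0.47 and 62.9% below 0 in 577 miRNAs above it. Of the 6, both arms of miR-190a and hsa-miR-876-3p had the sign of the low-GC median in both experiments. hsa-miR-582-5p (−1.93), hsa-miR-582-3p (−0.32) and hsa-miR-876-5p (−0.27) had the opposite sign to it in pre-treatment. Both arms of miR-582 had the same sign as it without control 2 (0.71 and 0.88) and the opposite sign without control 1 (−2.74 and −0.90). The low-GC median itself is that of the fit with both controls. What the difference with GC content comes from was not tested.

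**Figure D5:**
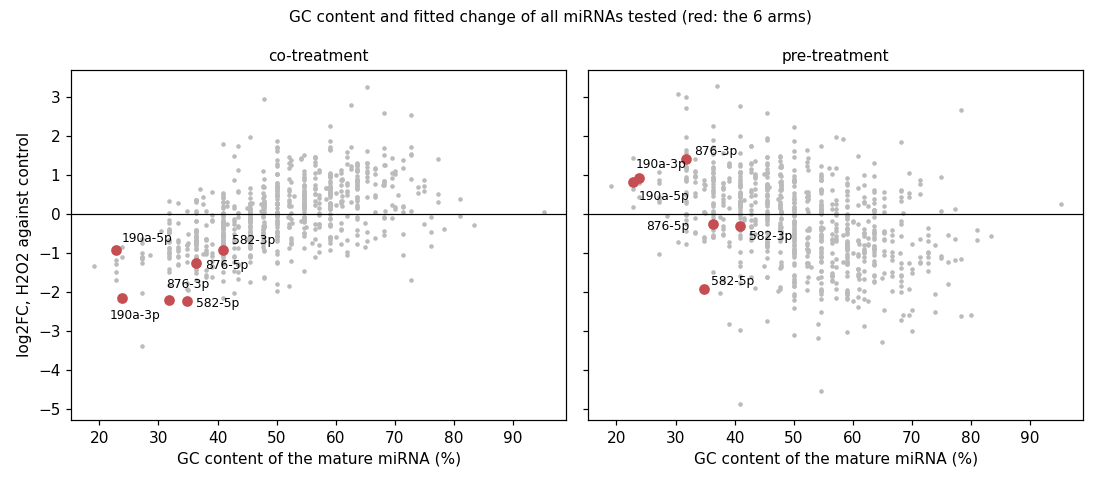
Fitted log2FC of H2O2 against control plotted on the GC content of the mature strand for all miRNAs tested that have a RefSeq sequence (grey), with the 6 miRNAs in red, for co-treatment and pre-treatment. Low-GC miRNAs lie mostly below 0 in co-treatment and above 0 in pre-treatment, and hsa-miR-582-5p lies low in both, at −2.23 and −1.93.

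When each library's trend on GC content was taken out, in a quasi-likelihood fit of 366 miRNAs with a mean of at least 10 CPM, the co-treatment difference of hsa-miR-190a-5p went from −0.67 to 0.33 and so changed sign. Its SE with the trend removed was 0.21. hsa-miR-190a-3p went from −1.93 to −0.91 (SE 0.44) and hsa-miR-876-5p from −1.02 to −0.49 (SE 0.22). hsa-miR-582-5p went from −1.98 to −1.37 (SE 0.42) and hsa-miR-582-3p from −0.67 to −0.33 (SE 0.24). hsa-miR-876-3p was too scarce for this fit. Only 8 miRNAs of the fit had a GC content as low as that of hsa-miR-190a-3p, so the trend is thinly supported where miR-190a lies. In pre-treatment, in a fit of 351 miRNAs, hsa-miR-190a-5p went from 0.57 to −0.022, hsa-miR-582-5p from −2.05 to −2.21, hsa-miR-582-3p from −0.49 to −0.59 and hsa-miR-876-5p from −0.53 to −0.85, and none of these 4 was called by the quasi-likelihood test with the trend removed, which called 11.4% of the 351.

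The relatives of these miRNAs were taken by seed and by position. Among the miRNAs of the count tables, 2 shared a seed with 1 of the 6, and they are shown to set their bases beside those of hsa-miR-190a-5p and hsa-miR-876-5p above, again with the seed in capitals.
hsa-miR-190b: uGAUAUGUuugauauuggguug
hsa-miR-3167: aGGAUUUCagaaauacuggugu

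hsa-miR-190b, which RefSeq lists as hsa-miR-190b-5p, is identical to hsa-miR-190a-5p in its first 15 bases and then differs by A16U, U17G, U18G, A19G, G20U, G21U and U22G, counted from 1 at the 5′ end with the base of hsa-miR-190a-5p first. It was at 60.5, 58.6 and 71.8 CPM in the co-treatment controls and at 44.6, 37.4 and 51.4 CPM in the H2O2 libraries. The H2O2 libraries lay below the controls, but the log2FC of −0.46 (SE 0.26) did not pass the test (FDR = 0.199 from edgeR's exact test). In pre-treatment it was at 19.4 and 66.2 CPM in the controls and at 53.1, 55.0 and 68.7 CPM in the H2O2 libraries, of which 2 lay between the controls and 1 above both (log2FC 0.32, exact test FDR = 0.764). With each library's GC trend removed its log2FC was 0.45 in co-treatment and −0.16 in pre-treatment. hsa-miR-3167 shares the seed of hsa-miR-876-5p and had 1 count in 1 co-treatment control and none in the other libraries, so it was not tested. The 1 seed partner tested was thus called in neither experiment, where 26.2% and 15.3% of the miRNAs tested were called.

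No other annotated miRNA hairpin lies within 10 kb of the 3. The nearest to MIR876 is MIR873, 25.2 kb away on chromosome 9 from 28888877 to 28888953, also on the minus strand in an intron of LINGO2. Its miRNAs were singled out after their values were seen. hsa-miR-873-5p was at 341, 364 and 590.0 CPM in the co-treatment controls and 224, 348 and 219 CPM in the H2O2 libraries (log2FC −0.66, SE 0.29, exact test FDR = 0.0944). hsa-miR-873-3p was at 21.7, 32.3 and 29.4 CPM in the controls and 36.0, 51.6 and 42.4 CPM in the H2O2 libraries, all above the controls (log2FC 0.67, SE 0.28, exact test FDR = 0.0742, and 0.0433 from DESeq2). The log2FC of the arms of miR-873 thus had opposite signs, but the groups overlapped for 5p, and edgeR's exact test called neither. With each library's GC trend removed the co-treatment log2FC was −0.78 for 5p and 0.34 for 3p. Both arms of miR-876 were lower, but miR-876 was chosen for that, so nothing is read from the contrast. In pre-treatment the log2FC was 0.47 for 5p and −0.02 for 3p, with exact test FDR of 0.491 and 0.997.

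Setting the 4 groups side by side, with experiment and any batch between the experiments not to be told apart, hsa-miR-190a-5p was highest in the pre-treatment H2O2 libraries (2027 ± 370 CPM, SD, n = 3) and the co-treatment controls (1890.3 ± 330 CPM, SD, n = 3), whose ranges overlapped. It was lower in the pre-treatment controls (1049 ± 154 CPM, SD, n = 2) and the co-treatment H2O2 libraries (957 ± 38.0 CPM, SD, n = 3), whose ranges overlapped as well. hsa-miR-190a-3p was highest in the co-treatment controls, at 19.4 ± 6.24 CPM (SD, n = 3), with means from 2.78 to 5.72 CPM in the other groups. The co-treatment controls did not overlap the next group, while the ranges of each lower pair of neighbours did.

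hsa-miR-876-5p went from 46.3 ± 5.09 CPM (SD, n = 3) in the co-treatment controls to 18.7 ± 3.63 CPM (SD, n = 3) with H2O2 in co-treatment, 11.5 ± 0.185 CPM (SD, n = 2) in the pre-treatment controls and 10.3 ± 3.55 CPM (SD, n = 3) with H2O2 in pre-treatment, and only the last pair overlapped. The pre-treatment controls thus held less of this miRNA than the co-treatment libraries with H2O2. hsa-miR-876-3p was at 5.20 ± 3.00 CPM (SD, n = 3) in the co-treatment controls and at 0.404 ± 0.166 CPM (SD, n = 2) in the pre-treatment controls, with both H2O2 groups between them, at 1.20 CPM in pre-treatment and 1.07 CPM in co-treatment, and these overlapped each other. For both arms of miR-582 the co-treatment controls had the highest mean, 134 ± 87.4 CPM for 5p and 156 ± 37.0 CPM for 3p (SD, n = 3), but all neighbours in the order overlapped.

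The miRNAs with the most similar profiles were found by the root mean square distance between log2 CPM profiles over the 11 libraries, each centred on its own mean, among 403 miRNAs with a mean of at least 10 CPM. hsa-miR-190a-5p had the closest match, hsa-miR-374b-3p, at a distance of 0.14 on the log2 scale, followed by hsa-miR-30d-3p at 0.18 and hsa-miR-627-5p at 0.20, against a median distance of 0.64. The 3 had log2FC from −0.89 to −0.73 in co-treatment and from 0.83 to 1.17 in pre-treatment. The strand most like hsa-miR-190a-3p was hsa-miR-106b-5p (0.31), then hsa-miR-19a-3p (0.33) and hsa-miR-17-5p (0.41). hsa-miR-17-5p (0.38), hsa-miR-19b-3p (0.41) and hsa-miR-19a-3p (0.47) were nearest to hsa-miR-876-3p. The median distance was 1.10 for hsa-miR-190a-3p and also 1.10 for hsa-miR-876-3p. The arms of the hairpin itself lay 0.86 apart in miR-190a and 0.68 apart in miR-876. The named profiles were picked as the nearest of 403, so nothing is read from their lying closer than the partner arm.

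For hsa-miR-876-5p the nearest profiles were hsa-miR-577 and hsa-miR-592 (both 0.48) and hsa-miR-766-3p (0.49), against a median distance of 0.96. hsa-miR-582-5p was nearest to hsa-miR-30b-5p (0.49), hsa-miR-130a-5p (0.53) and hsa-miR-491-3p (0.54), against a median of 1.34. All 3 had a log2FC below 0 in both experiments, from −1.51 to −1.25 in co-treatment and from −1.78 to −0.67 in pre-treatment. hsa-miR-582-3p was nearest to hsa-miR-3117-3p (0.26), hsa-let-7i-3p and hsa-miR-411-5p (both 0.28). The profiles share libraries and scaling, and 9 of the 18 names were also found when profiles were centred within each experiment. The names were picked by likeness over the same libraries that give their log2FC, so signs shared with a member are no separate result.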

How the data were processed

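Small RNA of SH-SY5Y cells was measured in 11 libraries (QIAseq miRNA Library Kit, NextSeq 500). The authors trimmed reads with Cutadapt 2.10, mapped them to hg19 with Bowtie2 2.4.1 and deposited the htseq-count 0.7.2 counts per mature miRNA without normalization. Whether molecular identifiers were used is not given in the sources used here, so counts are read counts, and the authors' deposited tables of fold changes, p-values and FDR were not used. Libraries were grouped by their labels.

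edgeR 4.0.16 in R 4.3.3 was run per experiment with a minimum CPM equal to 5 counts of the smallest library. A miRNA had to reach it (0.936 CPM) in 3 co-treatment libraries, or (0.721 CPM) in 2 pre-treatment libraries. The fit used TMM scaling, the exact test, Benjamini-Hochberg FDR under 0.05 and absolute log2FC above 0.6, after the study's methods. SEs come from the quasi-likelihood fit. Arm ratios used counts plus 0.5 and an exact permutation test over libraries. Alternatives were the quasi-likelihood test, DESeq2 1.42.0, other scalings and filters, the replicate number as a block, a lowess offset on GC content (span 0.5) and each library left out. The fit of the miRNAs with a GC value without the offset, and miR-873, were added after seeing the data. Named are the 6 miRNAs, seed partners (bases 2 to 8), hairpins within 10 kb and the 3 nearest profiles each. The members and lists were chosen with earlier results of these data known. Sequences are RefSeq's (GRCh38.p14 table, matched by name), and positions are from a GRCh37 annotation. The tests were tested on simulated data.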

Additional observations from a re-analysis of the deposited data

Results flagged for a closer look

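In 3 of the 6 miRNAs every H2O2 library lay below every control in co-treatment and above every control in pre-treatment, as in 12.6% of the 764 miRNAs tested in both experiments. These were hsa-miR-190a-5p, with a pre-treatment log2FC of 0.81 against −0.92 in co-treatment, hsa-miR-190a-3p, with 0.91 against −2.16, and hsa-miR-876-3p, with 1.40 against −2.22. The difference between the experiments was not tested, since the co-treatment values chose the miRNAs, and the pre-treatment values did not pass the test on their own. For the same reason 12.6% is no base for the 3 of 6. Among all miRNAs, 189 of the 790 tested in co-treatment had its part of the pattern, and 96 had the whole pattern. Other miRNAs of low GC content had a median log2FC of −0.73 in co-treatment and 0.46 in pre-treatment.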

How the results depend on the processing

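Of 87 co-treatment values of the 6 miRNAs under other settings, 79 moved by less than the spread between replicates and 1 changed sign, hsa-miR-190a-5p with the GC offset (0.33). Of 79 pre-treatment values, 4 changed sign and 6 passed the threshold, the latter each with 1 control left out. hsa-miR-582-3p without control 2 did both. Besides the controls left out, signs changed for hsa-miR-582-3p with the replicate block (0.044) and hsa-miR-190a-5p with the GC offset (−0.022). hsa-miR-190b changed sign with the GC offset (0.45 in co-treatment, −0.16 in pre-treatment). The pre-treatment log2FC of hsa-miR-873-3p was 0.075 with library size scaling, 0.12 without a low-count filter, 0.0044 with the replicate block and 0.20 with the GC offset.

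With 1 library left out, pre-treatment log2FC ranged from −2.74 to 0.71 for hsa-miR-582-5p, −0.90 to 0.88 for hsa-miR-582-3p, −0.26 to 1.49 for hsa-miR-190b and −0.51 to 0.89 for hsa-miR-873-3p, the difference in the log2 arm ratio of miR-190a from −0.52 to 0.19, and the number of the 6 called from 0 to 3. Calls over all miRNAs ranged from 8 to 460 in pre-treatment and 110 to 279 in co-treatment. The exact test's 133 pre-treatment calls became 61 without a filter. The quasi-likelihood test made 17 pre-treatment and 181 co-treatment calls (exact test 207), 54 and 131 among the fewer miRNAs with a GC value and a mean of at least 10 CPM, and 40 and 24 in those with the GC offset. The cause was not tested. Libraries of the same replicate number did not vary together in co-treatment (correlation of deviations from group means 0.043, −0.16 and −0.16). In pre-treatment the values were 0.22 and −0.050, from 2 controls whose deviations mirror each other. Whether the samples were paired cannot be told from this. As a block the replicate numbers gave 111 calls in co-treatment and 15 in pre-treatment. miR-876-3p, and in pre-treatment hsa-miR-190a-3p, were too scarce for the GC fits. Counts of 2 and 4 in the pre-treatment controls limit what can be said of hsa-miR-876-3p.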
